A study of Mus with 2 samples.

Results

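Respiratory complex I, the NADH:ubiquinone oxidoreductase of the mitochondrial inner membrane, was described here by 39 nuclear genes of 13533 genes measured. The 39 were chosen by name and not by a rule on their values, but with earlier results of these data known. They comprise 35 genes for subunits and 4 for assembly factors. All 39 symbols were found in the RefSeq gene table. Once spots with a quality mark of the scanner software were left out, 46 array probes matched them. There were 2 probes for 7 genes and 1 probe for 32 genes. Gene expression was measured in bone marrow derived macrophages (BMDMs) of male C57BL6/J mice, 10 weeks old, after 7 d with 10 ng/mL of M-CSF. The BMDMs were then kept for 24 h under M2 conditions, that is, with 10 ng/mL of IL-4, and received either DMSO, the solvent, or 10 µM of GW4064, a synthetic agonist of the farnesoid X receptor (FXR). Both cultures received M-CSF and IL-4, and no genetic change is named for either. The free-text note of the GW4064 sample repeats the wording of the DMSO sample, while its other labels name GW4064. There was 1 Agilent 1-colour array per condition, and whether both cultures came from the same animal or from pooled animals is not given in the sources used here.

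Complex I takes electrons from NADH, passes them through a flavin and a chain of iron-sulfur clusters to ubiquinone, and pumps protons across the inner membrane. Its peripheral arm lies in the matrix and carries the redox centres, and its membrane arm carries the proton channels, whose core subunits are encoded by mitochondrial DNA. Core subunits do the catalysis, accessory subunits surround and stabilize them, and assembly factors help to build the complex and then leave it. Macrophages polarized with IL-4 are known for their reliance on oxidative phosphorylation, and complex I is also a source of superoxide in macrophages exposed to bacterial products. The comparison of the arrays asked which of the transcripts for this machine differed with the FXR agonist.

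The values are the brightness of array spots, called the signal, after the scanner software had subtracted the background. Signals were put on a log2 scale whose 0 was the 75th percentile of each array (1209 with DMSO and 1265 with GW4064). A log2 difference is the GW4064 value minus the DMSO value, so that a gene with a slightly higher signal on the GW4064 array can have a difference near or below 0. With 1 array per condition no test was possible, there is no replicate error, and precision is limited by the number of arrays. Other guides to size were therefore used. The error that the scanner software attaches to each signal was 10.0% for nearly every complex I spot, which is 0.20 for a log2 difference. For 140 bright probes printed 8 or more times, the SD of the log2 difference between copies was 0.071 in the median and 0.24 at most. For 2711 genes measured by 2 probes on both arrays, the log2 differences of the probes lay 0.10 apart in the median and 0.32 apart at the 90th percentile. None of these guides holds the spread between cultures.

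On both arrays all 46 complex I probes were well above background, so none of the 39 genes was removed by the filter on dim probes. Spots with a quality mark had been left out beforehand, so 0 of the 46 spots carried one on either array. Of these spots 9 lay in what is called a damaged area of the slide here, where 2 or more other spots within 300 µm differed 8-fold or more between the arrays. Over the slide, 13.7% of spots lay in such areas. The rule also counts dim spots and spots of genes that differ between the cultures, so the name does not establish damage. Of the 39 genes, 27 (69.2%) were higher and 12 (30.8%) were lower with GW4064, whereas 51.6% of all 13533 genes were higher and 48.2% lower. None of the 39 genes was 2-fold apart, against 4.75% of all genes. None was 1.5-fold apart either, against 4.39% of all genes that were 1.5-fold higher and 5.56% that were 1.5-fold lower. The median log2 difference of the 39 genes was 0.084, with quartiles of -0.007 and 0.17, and that of all genes was 0.007, with quartiles of -0.12 and 0.13. The whole range ran from -0.080 for Ndufa11 to 0.41 for Ndufaf1, and the SD over the 39 genes was 0.13. Genes of about the same brightness varied less than dim genes, so that the 4832 genes within the level range of complex I are the closer background. Of these, 54.3% were higher and 45.7% lower, 1.22% were 1.5-fold higher, 0.745% were 1.5-fold lower, 0.538% were 2-fold apart, and the SD of their log2 differences was 0.22. Their median was 0.014, and 25 of the 39 complex I genes lay above it.

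Of the 39 genes, 8 (20.5%) were higher by 0.2 or more on the log2 scale and 0 were lower by as much. Over all genes these shares were 17.0% and 16.6%, and over the genes within the same level range they were 11.1% and 8.59%. The 8 genes were Ndufaf1, Ndufb4, Ndufa2, Ndufaf2, Ndufb8, Ndufs8, Ndufa7 and Ndufb2, which belong to every class but the acyl carrier protein. In 7 of the 39 genes each probe differed by more than the error of the scanner software, and these were the same genes without Ndufb4, whose probes disagreed. How many of all genes did so is not given here. The share of 20.5% is close to the 17.0% of all genes and above the 11.1% of genes within the same level range, and neither comparison could be tested. With the spike-in centring described further on, only Ndufaf1 was higher by 0.2 or more, against 8.32% of all genes, and 6 of the 39 were lower by as much, against 40.7% of all genes. The 6 were Ndufa11, Ndufs7, Ndufv3, Ndufb11, Ndufa5 and Ndufs1. For Ndufb11 the probes disagreed too. Before this centring, a dim probe with a DMSO signal of 128 had -0.20 and a bright one had 0.073.

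**Figure D1:**
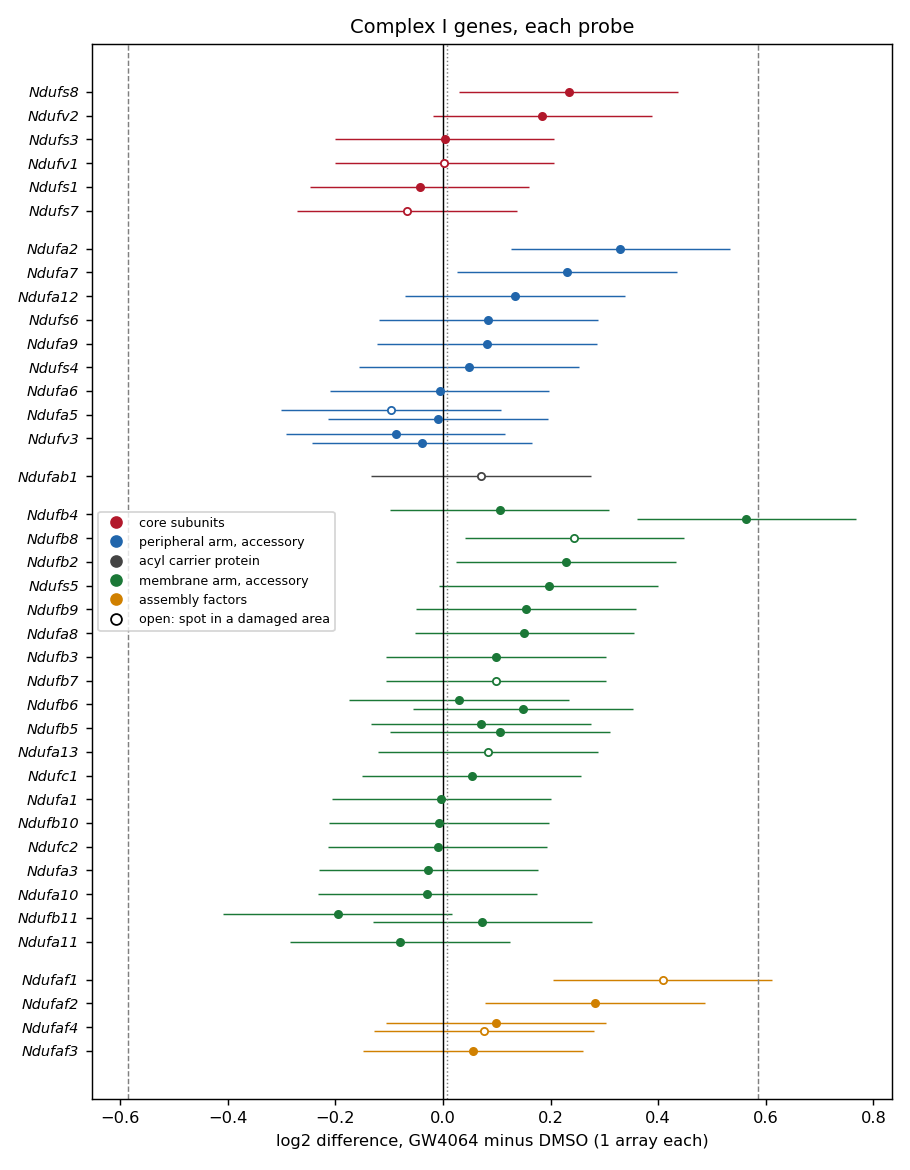
Log2 difference of each probe for the 39 complex I genes, GW4064 minus DMSO, with 1 array each. Points are probes, bars are the error of the scanner software (0.20 in most cases) and colours are the classes of subunit. Open points lie in the areas of the slide called damaged here. The dotted line is the median of all genes (0.007) and dashed lines mark 1.5-fold. All probes lie between the dashed lines, and the bars of most cross 0.

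Of the core subunits of the peripheral arm, 4 of 6 were higher, with a median log2 difference of 0.003 and a range from -0.067 to 0.23. The spots of Ndufv1 and Ndufs7 lay in damaged areas, and without them the median of the other 4 was 0.094. Ndufv1, which binds NADH and the flavin where electrons enter, had a signal of 33326 with DMSO and 34943 with GW4064, a log2 difference of 0.0027. Ndufv2, its iron-sulfur partner at the entry site, had 21262 and 25288, a difference of 0.18. Ndufs1, the largest subunit of the complex, holds several iron-sulfur clusters and had 21785 and 22120, a difference of -0.044. Ndufs3, a core subunit without a redox centre, had 26294 and 27581, a difference of 0.0032. Ndufs7 carries the cluster that hands electrons to ubiquinone, and its signals of 44433 and 44394 gave a difference of -0.067. Ndufs8, which carries the clusters before it, was the one core subunit above 0.2, with 5729 and 7049, a difference of 0.23. The subunits on the electron path thus did not share a direction, and of the 6 only Ndufs8 exceeded the error of the scanner software.

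Of the 9 accessory subunits of the peripheral arm, 6 were higher and 3 lower, with a median log2 difference of 0.082. Ndufa2, a small subunit with a thioredoxin-like fold, had a signal of 35959 with DMSO and 47302 with GW4064, a difference of 0.33 or 1.26-fold, the third highest of the 39 genes. Ndufa7 had 29483 and 36191, a difference of 0.23. Ndufa12, which takes the place of the assembly factor Ndufaf2 late in assembly, had 30679 and 35231, a difference of 0.13. The next 3 lay within 0.1 of 0. Ndufs6, a zinc-binding subunit, had 42986 and 47688, a difference of 0.084. Ndufa9, which binds a nicotinamide nucleotide near the junction of the arms, had 12017 and 13310, a difference of 0.082. Ndufs4, whose loss in mice is a model of Leigh syndrome, had 10640.4 and 11516, a difference of 0.049. The other 3 were at or slightly below 0. Ndufa6, of the LYR protein family, had 16003 and 16672, a difference of -0.0065. The probes for Ndufa5 had -0.0094 (signals of 26510 and 27565) and -0.097 (7142 and 6991), the second of them in a damaged area of the slide. The probes for Ndufv3 had -0.040 (51506 and 52449.9) and -0.088 (760 and 748). For both genes the probes shared the direction and lay less than 0.1 apart.

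Ndufab1 is the mitochondrial acyl carrier protein, which is bound in both arms of complex I through LYR subunits and also serves fatty acid synthesis in mitochondria. Its signal was 1922 with DMSO and 2114 with GW4064, a log2 difference of 0.071, and its spot lay in a damaged area of the slide.

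The membrane arm had 19 accessory subunits in the list, of which 12 were higher and 7 lower, with a median log2 difference of 0.088. The highest value was that of Ndufb4, and it rested on one of its probes. One probe had a signal of 22750.4 with DMSO and 35196 with GW4064, a difference of 0.56 or 1.48-fold, and the other had 16829 and 18948, a difference of 0.11. The gap of 0.46 between them exceeds the 90th percentile of 0.32 over all genes with 2 probes, and it is the largest among the 7 complex I genes with 2 probes. The mean for Ndufb4 was 0.33. Ndufb8, whose protein is often blotted as a sign of assembled complex I, had 40523 and 50237, a difference of 0.24, at a spot in a damaged area. Ndufb2 had 7243 and 8884, a difference of 0.23. These 3 were the membrane arm genes above 0.2.

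The subunits of the membrane arm that face the intermembrane space and hold disulfide bonds (CHCH proteins) covered the range from about 0 to 0.20. Ndufs5 had a signal of 34715 with DMSO and 41634 with GW4064, a log2 difference of 0.20. Ndufa8 had 7831 and 9101, a difference of 0.15, and Ndufb7 had 43699 and 48960.0, a difference of 0.098, at a spot in a damaged area. Ndufb10, a further subunit on that side, had 39571 and 41206, a difference of -0.0073. These subunits did not share one value.

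Ndufb9, an LYR subunit of the membrane arm, had a signal of 30301 with DMSO and 35299 with GW4064, a log2 difference of 0.15. The other spots within 500 µm of it had a median difference of 0.18, the highest such value for a complex I gene. With that local median subtracted, Ndufb9 had -0.024. For the 39 genes the local median ran from -0.067 around Ndufc1 to 0.18 around Ndufb9, with a median of 0.011, and 5 genes stayed at or above 0.2 after its subtraction. The subtraction was added once the values were known, and the share of all genes at or above 0.2 after it is not given here.

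The gene values of the remaining membrane arm subunits lay within 0.1 of 0. Ndufa13, also known as GRIM-19 and as a partner of STAT3, had signals of 114440 and 126952, a difference of 0.084, in a damaged area. Ndufb3 had 11993 and 13442, a difference of 0.099, and Ndufc1 had 30218 and 32810, a difference of 0.053. The probes for Ndufb5 had 0.11 and 0.070, and those for Ndufb6 had 0.15 and 0.030, so both genes were higher on each probe. Ndufa1, a small X-linked subunit needed for assembly, had 37686 and 39354, a difference of -0.0032. Ndufc2 had 21717 and 22568, a difference of -0.010, and Ndufa3 had 46461 and 47714, a difference of -0.027. Ndufa10, which resembles nucleoside kinases, had 8490 and 8707, a difference of -0.029. Ndufa11, related in sequence to the inner membrane import channel, was the lowest of the 39, with 5459 and 5404, a difference of -0.080. The probes for the X-linked Ndufb11 pointed in opposite directions, with 0.073 (signals of 32712 and 36013) and -0.20 (128 and 117). Probes of opposite sign were seen in 32.3% of all genes with 2 probes, and among the 7 such complex I genes in Ndufb11 alone.

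All 4 assembly factors among the 39 genes were higher with GW4064, with a median log2 difference of 0.19. Assembly factors outside the 39 went both ways, as given further on. Ndufaf1, a chaperone of the membrane arm (also named CIA30), had a signal of 1472 with DMSO and 2045 with GW4064. This log2 difference of 0.41, or 1.33-fold, was the highest of the 39 genes and stood at percentile 92.7 of all genes. Its only spot lay in an area called damaged, with 2 other spots within 300 µm that differed 8-fold or more. Ndufaf2, a paralog of Ndufa12 that holds its place during assembly, had 2397 and 3051, a difference of 0.28. Ndufaf3 and Ndufaf4, which work together on the early part of the peripheral arm near the ubiquinone site, were closer to 0. Ndufaf3 had 1768 and 1923, a difference of 0.055. The probes for Ndufaf4 had 0.098 and 0.076. Without the spots in damaged areas Ndufaf1 had no probe left, and the median of the other 3 was 0.098. With 4 genes the class is too small to set apart from the other classes, and no test of the difference was made.

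**Figure D2:**
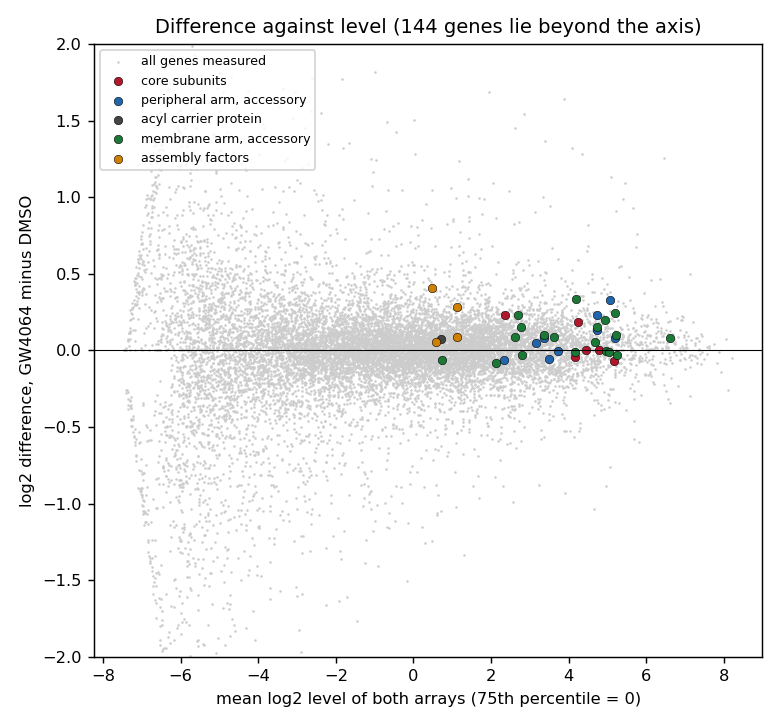
Log2 difference of each gene (GW4064 minus DMSO) against its mean log2 level on both arrays, where 0 is the 75th percentile of an array. Grey points are all genes measured, of which 144 lie beyond the axis limits of 2, and coloured points are the 39 complex I genes. The complex I genes lie at the bright end, between -0.080 and 0.41.

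The direction of single genes depended on how the arrays were scaled, because most differences were near 0. When 0 was set by the spike-in control RNA instead, the median of all genes was -0.16, and every difference shifted with it. In that setting 10 of the 39 complex I genes were higher and 29 lower, with a median of -0.082, against 20.3% of all genes higher. The 10 were Ndufaf1, Ndufb4, Ndufa2, Ndufaf2, Ndufb8, Ndufs8, Ndufa7, Ndufb2, Ndufs5 and Ndufv2, and these were higher in all 13 settings in which each could be measured. In the same sense 9 genes were lower throughout, namely Ndufa1, Ndufc2, Ndufa3, Ndufa10, Ndufs1, Ndufa5, Ndufv3, Ndufs7 and Ndufa11. Shares of all genes that kept their direction throughout are not given here. A centring shifts all genes alike, so it cannot move complex I relative to the median of all genes, above which it lay by 0.077 as reported, with 25 of the 39 genes above it. Quantile normalization can, and there complex I was 0.037 above the median of all genes, with 22 of the 39 genes above it. Other settings that can do so gave 0.059 with loess scaling, 0.058 with the local median subtracted and 0.083 with normexp. In these, 25, 27 and 29 of the 39 genes lay above the median of all genes. Without the spots in damaged areas, 32 genes were left, 21 of them higher, against 51.6% of all genes, with a median of 0.083.

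**Figure D3:**
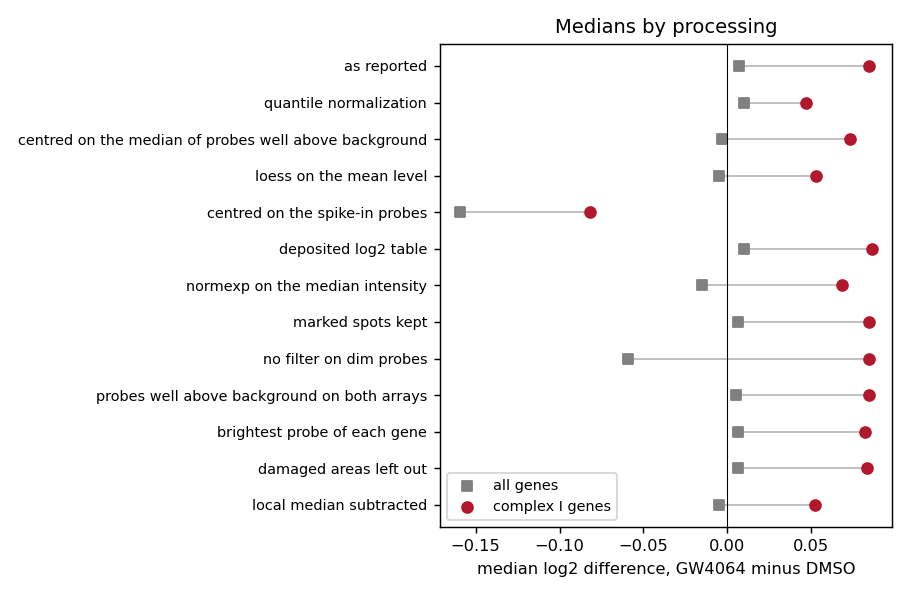
Median log2 difference, GW4064 minus DMSO, of the complex I genes (circles) and of all genes (squares) under each way of processing the arrays. The complex I median lies to the right of that of all genes in every setting, by 0.037 with quantile normalization and by 0.14 without a filter on dim probes, and is below 0 with the spike-in centring alone.

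Other genes of complex I, from a list written by name, gave similarly small values. Of 16 such genes, 15 were measured, with 10 higher and 5 lower, a median log2 difference of 0.042 and 0 genes 1.5-fold apart. The highest was Tmem186, an assembly factor of the membrane arm, with signals of 295 and 354 and a difference of 0.20. The lowest was Ndufaf7, a methyltransferase that acts in assembly, with 3124 and 3002 and a difference of -0.12. Other factors that act with Ndufaf1 in the assembly of the membrane arm had 0.13 for Ecsit, 0.092 for Tmem70, 0.073 for Dmac1, 0.065 for Acad9, 0.042 for Timmdc1 and -0.11 for Tmem126b. Ndufb1 had no matched probe, and the core subunits encoded by mitochondrial DNA were not matched by name and were not analysed here.

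The other respiratory complexes were compared with complex I because their subunits also join the electron transport chain. In complex III, which passes electrons from ubiquinol to cytochrome c, 9 of 9 genes were higher, with a median log2 difference of 0.10 and values from 0.015 for Uqcrfs1 to 0.21 for Uqcrc1. In complex IV, which reduces oxygen, 8 of 11 were higher, with a median of 0.041, from -0.070 for Cox7a2l to 0.23 for Cox7b. Among 16 genes of the ATP synthase and its inhibitor, 14 were higher, with a median of 0.078, from -0.029 for Atp5j2 to 0.21 for Atp5o. Among 8 genes of complex II, the succinate dehydrogenase, and its assembly, 7 were higher, with a median of 0.042, from -0.21 for Sdhaf2 to 0.23 for Sdhc. The complex I median of 0.084 lay between those of complexes III and IV, and the SD of its genes, 0.13, lay between the 0.094 of complex IV and the 0.15 of complex II, with 0.051 for complex III. No test of these differences was possible.

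**Figure D4:**
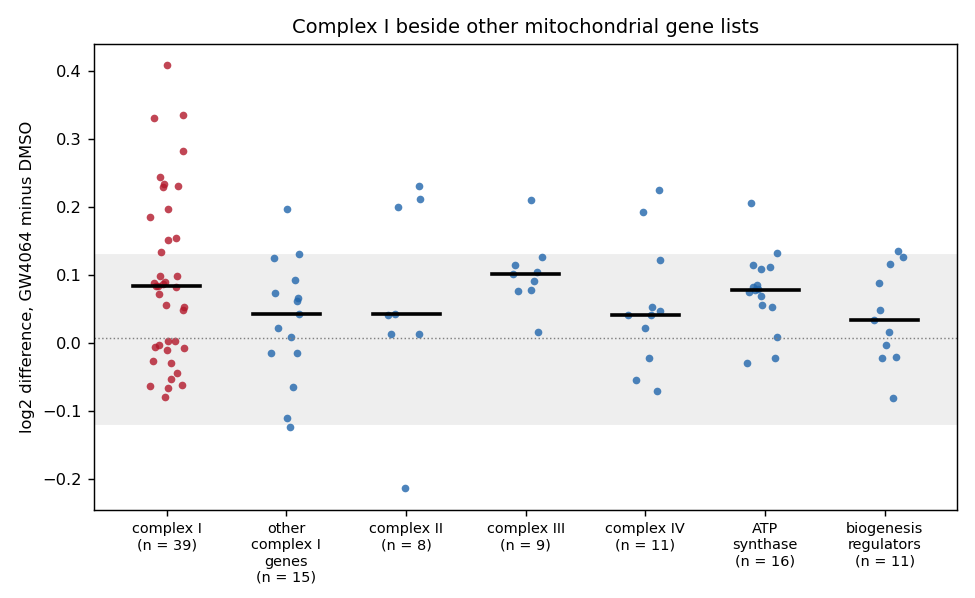
Log2 difference of each gene, GW4064 minus DMSO, for complex I and 6 other mitochondrial gene lists. Points are genes, black bars are medians, the dotted line is the median of all genes (0.007) and the grey band their quartiles (-0.12 to 0.13). The median of each list lies above the dotted line and within the band.

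Regulators of mitochondrial biogenesis were also near level. Of 12 genes, 11 were measured, 7 higher and 4 lower, with a median log2 difference of 0.034 and 0 genes 1.5-fold apart. Nrf1, a transcription factor for respiratory chain genes, had a difference of 0.12 and Gabpb1, a subunit of another, had the highest value with 0.14. Pprc1, a coactivator of the PGC-1 family, had the lowest with -0.082. Tfam, which packages and transcribes mitochondrial DNA, had -0.021. Ppargc1a, the best known coactivator of this pathway, did not stand well above background with DMSO or with GW4064.

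Macrophage markers were present in both cultures. Of 8 listed, 7 were matched and all 7 were well above background on both arrays, with summed signals of 277082 with DMSO and 268050.2 with GW4064. Of the stromal genes 7 of 8 were lower with GW4064, with summed signals of 37995 and 21091, and so were 5 of 5 measured neutrophil genes, with 13407 and 8698. The lowest were Acta2 with a log2 difference of -1.05 and Mpo with -0.94. The dendritic cell genes were mixed, with Zbtb46 at 0.44, Itgax at -0.30 and Flt3 not well above background with DMSO but at a signal of 81.5 with GW4064. Their summed signals of 186642 and 159256 were nearly all from Itgax, which macrophages can also express. Of 6 T cell genes 3 were above background on both arrays, namely Cd4 with signals of 1303 and 1228, Cd3e with 209 and 249 and Lck with 164 and 172. Of the B cell genes Cd79b had 282 and 236, and Ms4a1 had 35.8 with DMSO and was not well above background with GW4064. Of 5 mast cell and basophil genes only Kit was above background, with 37.9 and 23.8. On neither array did Cd79a and Pax5 of B cells stand well above background, nor did Cd3d, Cd3g and Cd8a of T cells, Alas2 of red cells, Cd209a and Xcr1 of dendritic cells, or Cpa3, Fcer1a, Mcpt8 and Ms4a2 of mast cells and basophils. Among the red cell genes, Hba-a1 and Klf1 were above background with DMSO only and Hbb-bt with GW4064 only. In a bulk sample, fewer cells of a type and less RNA per cell cannot be told apart. The part of these cells in the complex I values was not tested.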

How the data were processed

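The authors deposited the scanner output of 2 Agilent 1-colour (Cy3) arrays, with intensities per spot from Agilent Feature Extraction 10.7.1.1, background subtracted and not scaled between arrays. They also deposited a log2 table, whose difference between the arrays equalled the one computed here for 39200 probes, apart from a constant of 0.0022, while the baseline on which each probe was centred is unknown. Its columns have medians of 0.035 (DMSO) and -0.051 (GW4064). The methods name GeneSpring and no normalization.

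Spots marked as non-uniform or as outliers were left out (399 of 43020 with DMSO, 207 with GW4064), and 0 were saturated. Copies of a probe were averaged. Where a probe passed the scanner's background test on 1 array only, the other value was raised to the lowest passing signal (15.7 and 15.1) unless already higher, so its difference is a lower bound. Gene values are means over probes that passed on either array. RefSeq accessions of GRCm38.p6 named 26445 probes. Coordinates are left out, since the design's build differs.

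The members, lists and alternatives were chosen with earlier results of these data known. All 39 members are named. Of the pathway lists, the highest and lowest gene and any gene 1.5-fold apart are named, and of the marker lists those that the check of cell types needs. Nrf1, Tfam, Ppargc1a, Ecsit, Acad9, Tmem126b, Tmem70, Dmac1 and Timmdc1 were added for their roles. Alternatives were quantile, median, loess (span 0.3) and spike-in scaling, the log2 table, normexp (offset 50) on the median intensity, other filters, the brightest probe, and leaving out damaged areas, where 2 or more other spots within 300 µm differed 8-fold. Some items are not reported here. The planned promoter motif search was not run, since no sequences were used here. The steps were tested on simulated data. Normexp ran in limma 3.58.1 under R 4.3.3. The rest ran in Python 3.11.15 with pandas 2.3.3, numpy 2.4.6, scipy 1.17.1 (spot distances), statsmodels 0.14.6 (loess) and matplotlib 3.10.9 (plots).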

Additional observations from a re-analysis of the deposited data

How the results depend on the processing

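No paired analysis was possible because there was 1 array per condition, and no array could be left out. Subtraction of the local median was chosen after seeing the data. For the complex I counts and medians, 12 other settings were run, and a shift of more than 0.076, the median SD over copies of a probe, was taken as a move. Centring on the spike-in RNA gave 10 complex I genes higher and 29 lower, a median of -0.082, and 1 gene higher and 6 lower by 0.2 or more. The medians were then -0.16 for the core subunits, -0.085 for the peripheral arm, -0.078 for the membrane arm, 0.018 for the assembly factors, -0.12 for complex II, -0.066 for complex III, -0.13 for complex IV and -0.088 for the ATP synthase, a shift that the centring itself makes. Without damaged areas, the core subunits had a median of 0.094 and the assembly factors of 0.098, since fewer genes were left. After normexp, complex II had -0.050, and with the local median subtracted 5 complex I genes were higher by 0.2 or more. The cause of either was not tested. In the other settings run the counts of genes higher, lower and at least 0.2 higher or lower stayed within 1.5 times their value and the medians within 0.076. That limit is about as large as most of the medians, so they could fall near 0 without counting as moved. With quantile normalization the medians were 0.047 for complex I, -0.050 for the core subunits, 0.011 for the peripheral arm and 0.021 for the membrane arm. They were 0.17 for the assembly factors, 0.020 for complex II, 0.029 for complex III, -0.010 for complex IV and 0.015 for the ATP synthase. In any setting 0 complex I genes were 1.5-fold apart. The sign changed for 17 of the 39 genes with the spike-in centring, for 5 with the local median, for 3 with quantile normalization and for at most 2 in the others. These counts have no share of all genes beside them. Differences near the 0.20 error of the scanner software cannot be resolved with these arrays.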

Other observations

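Genes of the mitochondrial ribosome and of protein import, taken by symbol (Mrpl and Mrps, Timm and Tomm) after the data were seen, were looked at beside complex I. Of 78 genes of the mitochondrial ribosome 76 were measured, with 64 higher and 12 lower, a median log2 difference of 0.090 and 8 that were higher by 0.2 or more. The highest was Mrpl23 with 0.38. The lowest was Mrpl21, with a signal of 64.2 with DMSO and not well above background with GW4064, at least 4.44-fold lower and the only one of the 76 that was 2-fold apart. Of 26 genes for protein import 25 were measured, 20 higher and 5 lower, with a median of 0.051, from -0.22 for Timm8a2 to 0.32 for Tomm40l. The complex I median of 0.084 lay between these values.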
